A study of Mus musculus with 2 samples.

Results

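The genes described here are 32 members of the ATF4 programme, the set of genes that mammalian cells use to answer a lack of amino acids and stress in the endoplasmic reticulum (ER). They were chosen by name as genes of this pathway, with earlier results of these data known, and all 32 were found by symbol among the 35275 Ensembl identifiers of the read count table. Expression was measured by RNA sequencing in mesenchymal stem/progenitor cells (MSPC) sorted from bone marrow, which are stromal cells that support blood stem cells and can form bone, cartilage and fat. The mutant group was Ptpn11E76K/+ (1 library) and the control group Ptpn11+/+ (1 library). Both genotypes carried Nestin-Cre, a recombinase driven by the nestin promoter, on a C57BL/6 background, and the age of the mice is given in none of the sources used. E76K is an activating change in SHP2, a phosphatase that feeds RAS-ERK signalling, and the comparison asks how the mutant cells differ from the control cells in expression. Cells were gated as negative for CD45, Ter-119 and CD31 and as positive for CD140 and Sca-1. The series' design text mentions 2 replicates, while the table has a single column for each genotype. No source used here says whether mice were pooled.

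ATF4 is a transcription factor whose messenger RNA is translated best when the initiation factor eIF2 is phosphorylated by one of its stress kinases. It pairs with C/EBP proteins and switches on amino acid transporters, enzymes that make serine, asparagine, proline and cysteine, and regulators that later dampen the response. Growth factor signalling through mTORC1 also raises ATF4, so the same genes serve growing cells. In cells of the bone lineage, ATF4 is known for its part in osteoblast differentiation and collagen production.

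The mutant library held 18010963 counts and the control library 22328659. Levels are given in CPM (counts scaled to a common library size) of library totals scaled with TMM factors, and levels of different genes are compared only as CPM per kilobase of the longest annotated transcript. A ratio is the mutant level over the control level, so that values above 1 are higher in the mutant library, and each ratio has a 95% counting interval. With 1 library per genotype there is no replicate check and no test between genotypes. The intervals describe counting error in this pair of libraries and nothing else. A gene with at least 20 counts over both libraries was taken as measured, and a call of higher or lower required the entire interval to be past 2-fold. All 32 members were measured. In bulk RNA, fewer cells with a transcript and less transcript per cell cannot be told apart.

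Of the sort markers, Pdgfra had 1792 counts in the mutant and 2073 in the control library, a scaled ratio of 1.15 (1.08 to 1.23). Pdgfrb had 3721 counts in the mutant and 6075 in the control library, a ratio of 0.815 (0.782 to 0.849). Ly6a, the gene of Sca-1, had 612 counts in the mutant and 2177 in the control library, a ratio of 0.374 (0.341 to 0.409). Ly6a was called lower, as were Cxcl12 and Prrx1, while Nes and Thy1 were called higher, so 5 of the 9 measured MSPC markers were called. For this and the marker counts below, 6.98% of all 13142 measured genes were called higher and 8.29% lower, 15.3% in either direction. Eng, with a ratio of 1.12, and Nt5e, with one of 1.07, were not called. The Thy1 call, and that of the monocyte marker Cd14, were lost without the 20 most abundant genes and after correction for transcript length and GC content, and that of Cd14 also with library totals and with a 99% interval. Lepr, a marker of perivascular stroma, had 4 counts in the mutant and 7 in the control library. Markers of monocytes and macrophages were higher in the mutant library. All 8 measured genes of a list of 12 had ratios above 1 and 6 were called higher (Lyz2, Ctss, C1qa, Mpeg1, Itgam and Cd14), and the summed level of the 12 was 57.9 CPM in the mutant and 14.1 CPM in the control library. Of the defining genes, Ctss, C1qa, C1qb, C1qc, Adgre1 and Itgam were at 0 in the control library only and Fcgr1 was at 0 in both. Pan-haematopoietic markers summed to 13.9 CPM in the mutant and 0.908 CPM in the control library, with Itgb2, Lcp1, Laptm5 and Tyrobp called higher. Of 6 fat cell markers, Adipoq, Plin1 and Cidec were at 0 in both libraries, Pparg was not called, and Fabp4 and Lpl were called higher, Lpl on 24 counts in the mutant and 4 in the control library. Their list summed to 33.3 CPM in the mutant and 16.4 CPM in the control library, and 0 of 3 measured osteoblast markers were called. With a minimum of 100 counts, Ctss, C1qa, Mpeg1, Itgam, Lpl and the 4 pan-haematopoietic genes called would not count as measured. The part of these markers in the results that follow was not tested. The summed level of a few marker genes does not measure the share of RNA that came from such cells. The 32 members of the ATF4 programme summed to 4395 CPM in the mutant and 2358 CPM in the control library.

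The short element that ATF4 and C/EBP dimers bind, the C/EBP-ATF response element, has the core TGATGNAA. RefSeq promoters (GRCm38.p6, 250 bases before to 50 after the annotated start) were supplied for 28 of the members, and 9 of these 28 genes (32.1%) held an exact match on either strand, against 4.51% of all 27025 genes in that table. No other motif was searched. The members were chosen as known ATF4 genes, so this share describes the choice. Matches were present in 3 of the 9 called genes with a promoter (Chac1, Slc7a11 and Trib3) and in 6 of the 19 uncalled ones. These promoters are shown because genes with the same core went different ways in the libraries. The 250 bases before the start are given for the member with the largest ratio, for the cystine transporter gene with a pair of matches, and for the member with the lowest ratio. For the other 6 genes, 30 bases round the match are given. Sequences run 5′ to 3′ along the gene, and capitals mark the match (TTGCATCA and TTACATCA are matches read on the other strand).
Chac1, chr2:119350992-119351241, + strand: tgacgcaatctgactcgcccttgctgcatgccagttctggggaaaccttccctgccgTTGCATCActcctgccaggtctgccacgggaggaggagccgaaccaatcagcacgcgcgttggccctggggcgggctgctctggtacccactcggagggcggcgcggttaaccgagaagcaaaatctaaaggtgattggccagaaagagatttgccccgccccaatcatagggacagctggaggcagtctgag
Slc7a11, chr3:50443614-50443863, - strand: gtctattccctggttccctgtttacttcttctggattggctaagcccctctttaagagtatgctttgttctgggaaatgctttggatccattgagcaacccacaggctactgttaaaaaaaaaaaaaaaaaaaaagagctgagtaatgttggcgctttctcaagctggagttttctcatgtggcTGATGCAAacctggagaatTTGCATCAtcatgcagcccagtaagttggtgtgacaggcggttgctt
Pycr1, chr11:120643749-120643998, - strand: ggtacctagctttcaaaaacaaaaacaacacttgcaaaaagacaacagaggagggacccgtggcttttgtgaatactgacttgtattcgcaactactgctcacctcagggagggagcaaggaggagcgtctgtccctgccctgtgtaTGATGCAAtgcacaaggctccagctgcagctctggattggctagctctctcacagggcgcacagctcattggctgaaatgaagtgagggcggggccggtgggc
Trib3, chr2:152344028-152344057, - strand: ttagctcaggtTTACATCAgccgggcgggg
Asns, chr6:7693214-7693243, - strand: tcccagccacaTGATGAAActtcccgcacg
Vldlr, chr19:27216809-27216838, + strand: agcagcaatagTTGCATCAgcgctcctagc
Nupr1, chr7:126625562-126625591, - strand: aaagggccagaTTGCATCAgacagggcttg
Herpud1, chr8:94386306-94386335, + strand: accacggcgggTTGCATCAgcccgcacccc
Slc1a4, chr11:20332699-20332728, - strand: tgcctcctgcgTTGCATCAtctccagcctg
The matches in Slc7a11 lie on opposite strands, with their first bases 66 and 47 bases before the start. In Trib3 the match lies 15 to 22 bases after the annotated start, and in Slc1a4 it spans the start. A match does not show that a factor binds there.

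Most of the 32 members, chosen with earlier results of these data known, stood on the higher side in the mutant library. Of the 32 members, 12 were called higher (37.5%) and 0 lower, where 6.98% of the 13142 measured genes were called higher and 8.29% lower. The other 20 members were not called. With TMM factors, ratios above 1 were found for 27 members (84.4%), against 50.1% of measured genes. All 27 had the whole interval above 1, against 39.6% of measured genes. Such shares of whole intervals also depend on the number of counts per gene. Pycr1, Gpt2 and Slc1a4 had the whole interval below 1, against 37.4% of measured genes, and the intervals of Atf5 and Ddit3 included 1. The median log2 ratio of the members was 0.75, and that of all measured genes was 0.00. A list of 15 other measured ATF4 and CHOP targets and partners, described below, had a median of -0.14. Together the members took 0.424% of all counts in the mutant and 0.244% in the control library. Leaving the 20 most abundant genes out of the totals gave 716 genes higher and 1326 lower over the whole table, against 917 and 1090 with TMM factors, and 11 members higher.

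**Figure D1:**
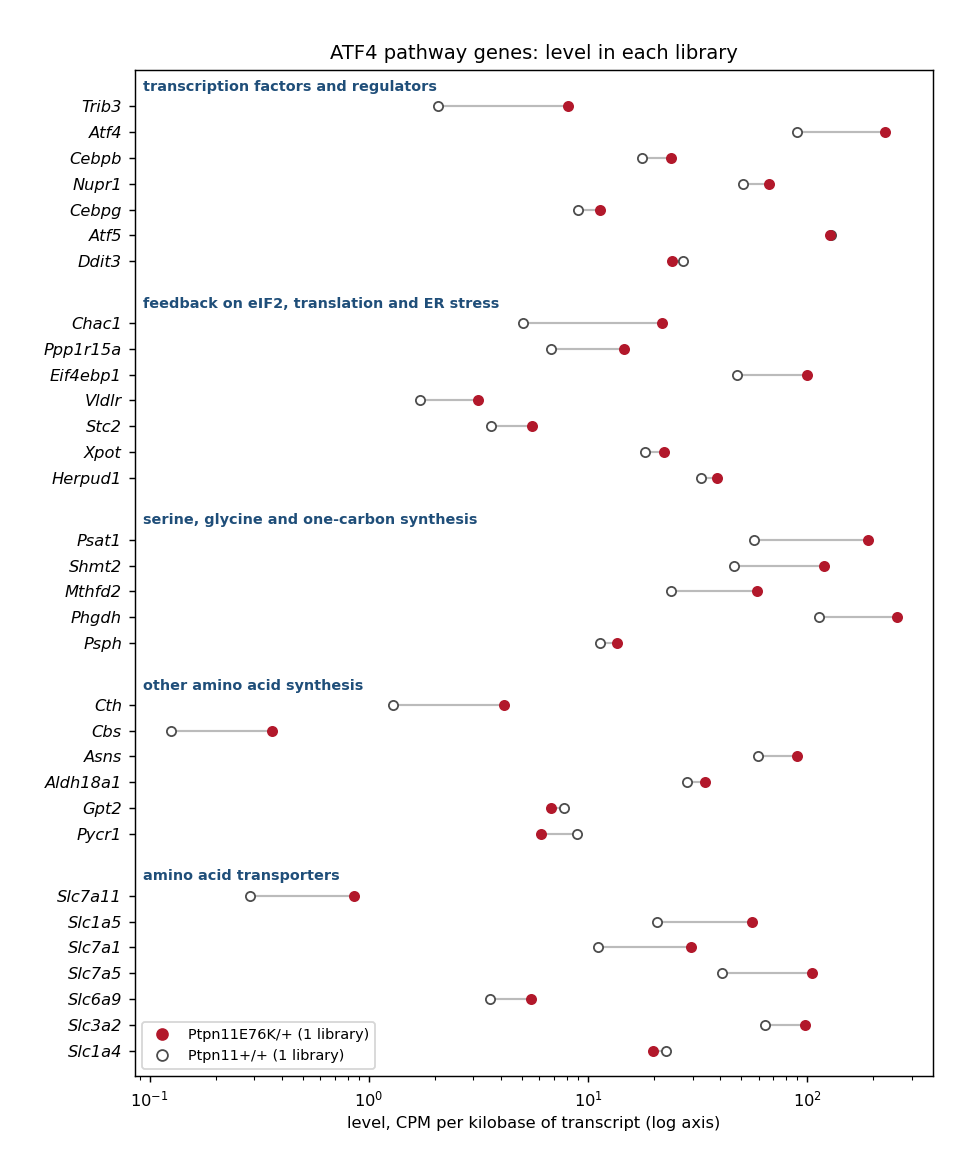
Level of each of the 32 genes in CPM per kilobase of transcript (log axis), by role, in the Ptpn11E76K/+ library (filled points) and the Ptpn11+/+ library (open points), with a grey line joining the libraries. Phgdh, Atf4 and Psat1 have the highest levels in the mutant library and Cbs the lowest, and 27 of the 32 filled points lie to the right of their open points.

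Among the transcription factors and regulators, Atf4 itself and Trib3 were called higher and the other 5 genes were not called. The share called higher was 28.6%, against 6.98% of all measured genes. Atf4 had 7921 counts in the mutant and 4210 in the control library, a ratio of 2.50 (2.41 to 2.60). Its level of 226 CPM per kilobase in the mutant library was second among the members there, against 90.2 CPM per kilobase in the control. Trib3 encodes a pseudokinase that binds ATF4 and CHOP and restrains them. It had 284 counts in the mutant and 97 in the control library, a ratio of 3.89 (3.08 to 4.96), which was the second largest of the members. Both genes lay above 2-fold with their whole interval.

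The partners and relatives of ATF4 were closer between the libraries. Ddit3, the gene of the stress factor CHOP, had 406 counts in the mutant and 609 in the control library, a ratio of 0.887 (0.780 to 1.01). Atf5, the nearest relative of ATF4, had 4022 and 5391 counts in mutant and control, a ratio of 0.992 (0.952 to 1.03). Both intervals included 1, but with library totals they lay below it, at 0.727 to 0.939 for Ddit3 and 0.888 to 0.964 for Atf5, as they did without the 20 most abundant genes and after the length and GC correction, and for Ddit3 also with upper-quartile factors. With TMM factors neither interval overlapped that of Atf4. Cebpb, a C/EBP factor that also acts early in fat cell formation, had 622 counts in the mutant and 613 in the control library and a ratio of 1.35 (1.21 to 1.51). Cebpg, the dimer partner that ATF4 uses for amino acid genes, had 925 and 977 counts in mutant and control and a ratio of 1.26 (1.15 to 1.38). Nupr1, a small stress-induced chromatin protein gene, had 2848 counts in the mutant and 2873 in the control library and a ratio of 1.32 (1.25 to 1.39). These 3 ratios lay above 1 but well inside 2-fold.

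Of the genes that feed back on translation or act in ER stress, Chac1 was called higher and the other 6 were not. This single gene made a share of 14.3%, against 6.98% of all measured genes. With TMM factors, all 7 had their whole interval above 1, against 39.6% of all measured genes. Chac1 encodes an enzyme that breaks down glutathione. It had 620 counts in the mutant and 191 in the control library, and its ratio of 4.32 (3.67 to 5.11) was the largest of the 32. Ppp1r15a, which encodes GADD34, the subunit that directs a phosphatase to eIF2, had 710 and 440 counts in mutant and control and a ratio of 2.15 (1.90 to 2.42). Eif4ebp1, which encodes the translation repressor 4E-BP1, had 3478 counts in the mutant and 2203 in the control library and a ratio of 2.10 (1.99 to 2.22). Their lower bounds were the nearest below 2 among the members. Just inside it were Phgdh, with a lower bound of 2.18, and Slc7a11, with one of 2.19.

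The remaining genes of this group had smaller ratios. Vldlr, a lipoprotein receptor gene, had 437 counts in the mutant and 316 in the control library and a ratio of 1.84 (1.59 to 2.13). After correction for transcript length and GC content its ratio was 2.35 (2.03 to 2.73), which would be called. Stc2, which encodes the secreted glycoprotein stanniocalcin 2, had 385 and 331 counts in mutant and control and a ratio of 1.55 (1.33 to 1.80). Xpot, the gene of the tRNA exporter exportin-t, had 2310 counts in the mutant and 2533 in the control library and a ratio of 1.21 (1.15 to 1.28). Herpud1, whose product helps degrade misfolded ER proteins, had 1314 and 1478 counts in mutant and control and a ratio of 1.18 (1.10 to 1.27). After correction for length and GC content its interval was 0.982 to 1.14 and included 1. The Herpud1 interval did not overlap that of Chac1, although both promoters hold the TTGCATCA match printed above.

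**Figure D2:**
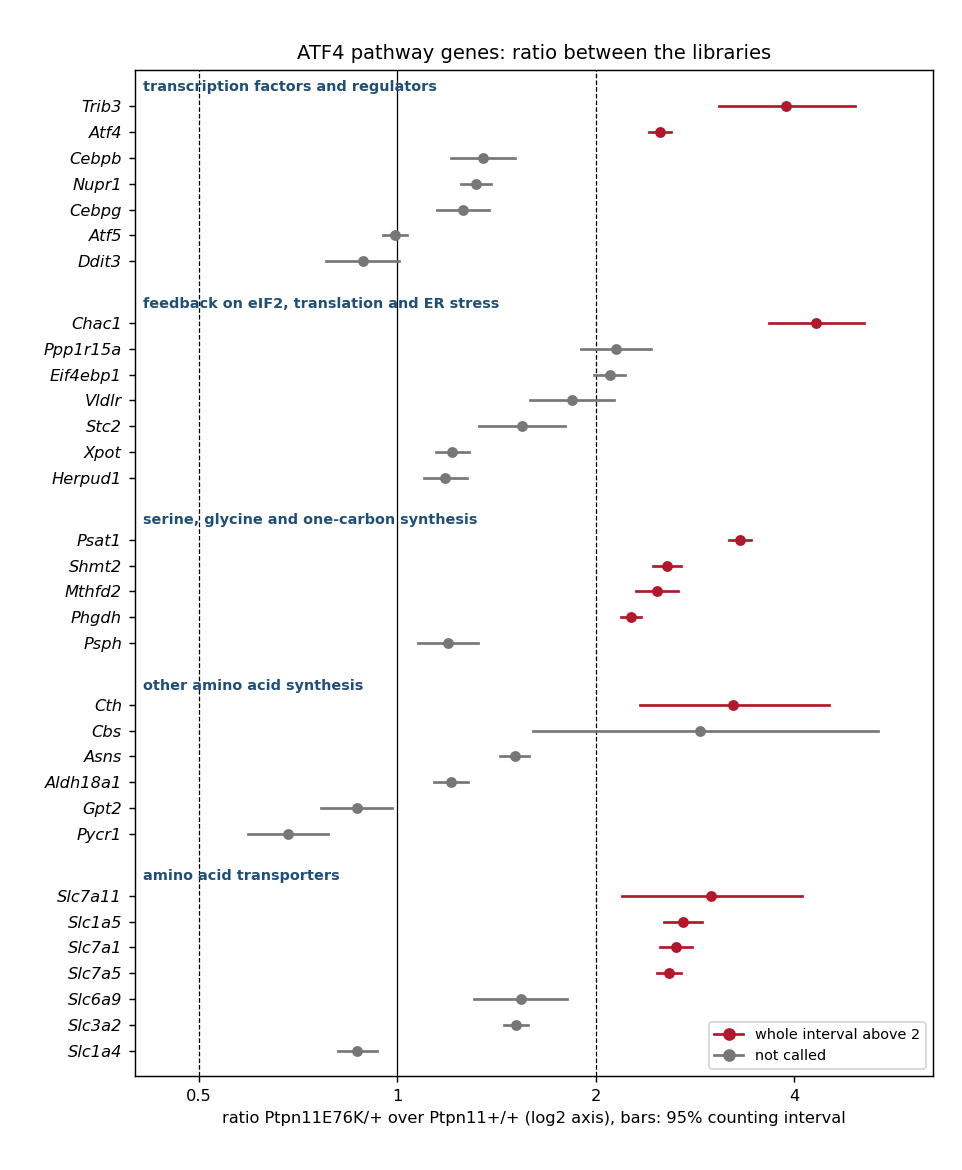
Ratio of the Ptpn11E76K/+ to the Ptpn11+/+ library for each gene (log2 axis) with its 95% counting interval, by role. Red marks the 12 genes whose whole interval is above 2, and grey the 20 genes that were not called. The solid line is equality and the dashed lines are 2-fold, and Chac1 lies farthest to the right.

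Serine, glycine and one-carbon synthesis was the member group with the largest share of calls, 4 of 5 genes (80%), against 6.98% of all measured genes called higher. Serine is made from a glycolytic intermediate by the enzymes of Phgdh, Psat1 and Psph, in that order. Phgdh had 8434 counts in the mutant and 4960 in the control library, a ratio of 2.26 (2.18 to 2.34). Psat1, the transaminase gene of the second step, had 8576 and 3446 counts in mutant and control, a ratio of 3.31 (3.18 to 3.44). Psph, the phosphatase gene of the last step, had 681 counts in the mutant and 758 in the control library, a ratio of 1.195 (1.08 to 1.33). The first steps were thus called higher and the last was not, and the 3 intervals did not overlap. Per length, Phgdh and Psat1 stood at 256 and 188 CPM per kilobase in the mutant library, against 113 and 56.9 in the control, while Psph stood at 13.6 CPM per kilobase in the mutant and 11.4 in the control. Phgdh lost its call with totals that omit the 20 most abundant genes (ratio 2.06, lower bound 1.99), and again after correction for length and GC content (ratio 1.93, lower bound 1.86). Without the 20 most abundant genes, the Psph interval was 0.982 to 1.21 and included 1.

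The mitochondrial enzymes that pass the carbon of serine to folate followed the first steps. Shmt2, which splits serine into glycine and a one-carbon unit, had 4743 counts in the mutant and 2461 in the control library, a ratio of 2.56 (2.44 to 2.69). Mthfd2, which oxidises that unit, had 2147 and 1152 counts in mutant and control, a ratio of 2.48 (2.31 to 2.67). Their intervals overlapped each other, so their ratios were not told apart by counting error.

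The other amino acid enzymes went different ways. Of the 6, 1 was called higher (16.7%), against 6.98% of all measured genes, a difference that rests on a single gene. Cth, the gene of the enzyme that releases cysteine from cystathionine, had 131 counts in the mutant and 54 in the control library and a ratio of 3.23 (2.33 to 4.52). Cbs, which encodes the enzyme before it, was the member with the fewest counts, 39 in the mutant and 18 in the control library, and its ratio of 2.88 had an interval of 1.61 to 5.35 that is too wide for a call at this depth. Asns, the asparagine synthetase gene and a classical ATF4 target, had 3151 counts in the mutant and 2779 in the control library and a ratio of 1.51 (1.43 to 1.59). Asns was thus higher, but by less than 2-fold. Gpt2, the gene of mitochondrial alanine transaminase, had 428 and 656 counts in mutant and control and a ratio of 0.868 (0.767 to 0.982).

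The proline enzymes differed within the pathway. Aldh18a1, whose product starts proline synthesis from glutamate, had 2097 counts in the mutant and 2314 in the control library and a ratio of 1.21 (1.14 to 1.28). Pycr1, the mitochondrial enzyme gene of the last step, had 309 and 601 counts in mutant and control. Its ratio of 0.684 (0.594 to 0.786), or 1.46-fold lower in the mutant library, was the lowest of the 32. Pycrl, also named Pycr3, encodes a related reductase. It is no member, was picked after its values were seen, and went the opposite way. It had 1018 counts in the mutant and 497 in the control library and a ratio of 2.72 (2.45 to 3.04). It was called higher, but not after correction for length and GC content (lower bound 1.997). Its interval did not overlap that of Pycr1.

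Of the 7 amino acid transporters, 4 were called higher (57.1%), against 6.98% of all measured genes. Slc7a5, the gene of LAT1, which imports large neutral amino acids such as leucine, had 6431 counts in the mutant and 3311 in the control library and a ratio of 2.58 (2.48 to 2.70). Slc7a1, which encodes the transporter CAT1 for arginine and lysine, had 3682 and 1852 counts in mutant and control and a ratio of 2.64 (2.50 to 2.80). Slc1a5, the gene of the glutamine transporter ASCT2, had 2727 counts in the mutant and 1338 in the control library and a ratio of 2.71 (2.54 to 2.90). The intervals of these 3 genes overlapped, but after correction for length and GC content Slc7a1, with 2.96 (2.80 to 3.13), lay above both Slc7a5, with a ratio of 2.397, and Slc1a5, with 2.45 (2.29 to 2.62). Slc7a11 encodes xCT, the cystine importer that is also a target of the antioxidant factor NRF2. It had 137 counts in the mutant and 61 in the control library and a ratio of 2.99 (2.19 to 4.11), and 4.32 after correction for length and GC content.

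Slc3a2, which encodes the heavy chain 4F2hc that carries both LAT1 and xCT to the membrane, was not called. It had 4754 counts in the mutant and 4176 in the control library and a ratio of 1.51 (1.45 to 1.58), below the interval of Slc7a5. Per length, the heavy chain gene stood at 97.2 CPM per kilobase in the mutant and 64.2 in the control library, and Slc7a5 at 105 in the mutant and 40.7 in the control. By the longest annotated transcripts, the light chain gene stood lower than the heavy chain gene in the control library. In the mutant library their levels were about equal. The transcript forms present were not determined. Slc6a9, the glycine transporter gene, had 332 and 287 counts in mutant and control and a ratio of 1.54 (1.31 to 1.81). Slc1a4, which encodes ASCT1, a relative of ASCT2 that carries serine and alanine, had 1346 counts in the mutant and 2056 in the control library and a ratio of 0.871 (0.812 to 0.933). It was the only transporter of the 7 with a ratio below 1.

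**Figure D3:**
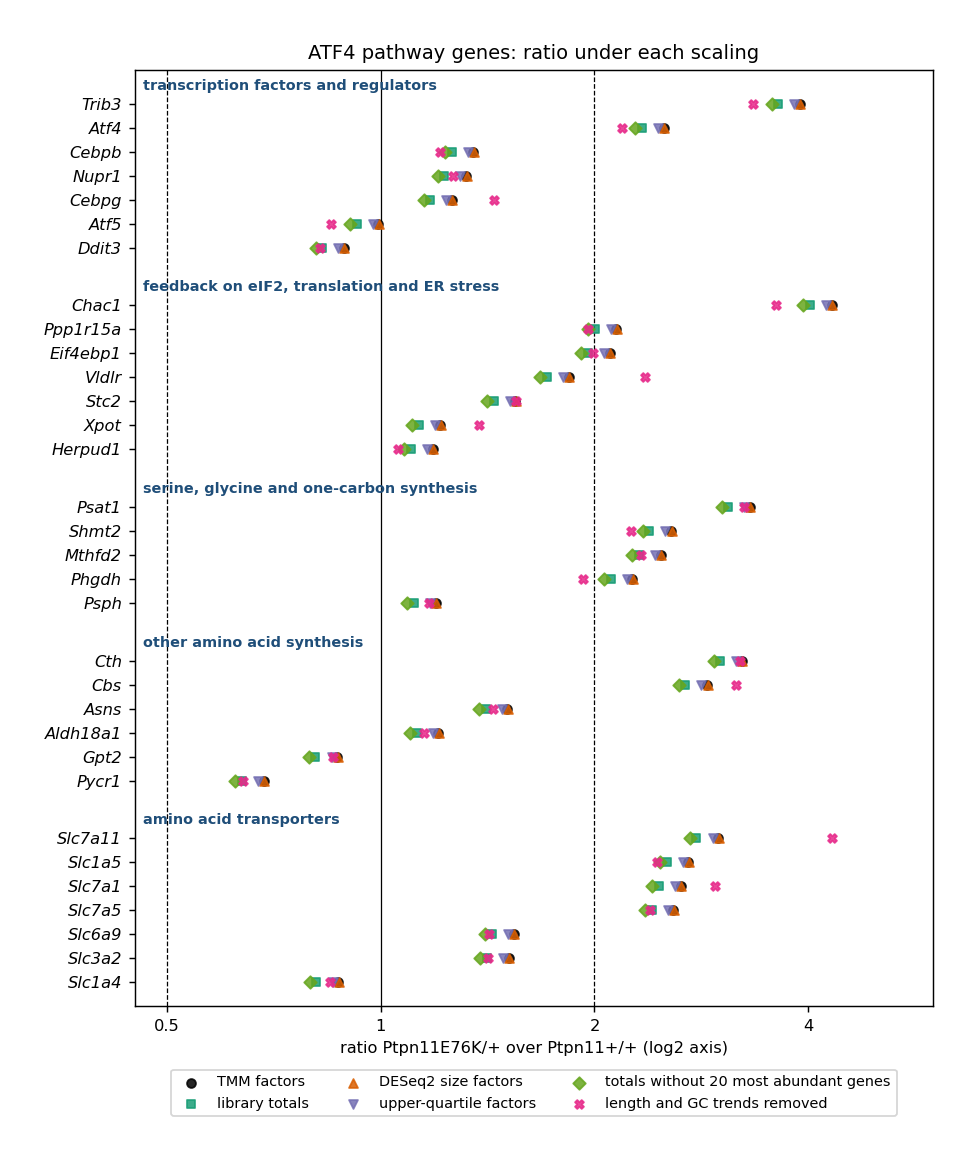
Ratio of the Ptpn11E76K/+ to the Ptpn11+/+ library for each gene (log2 axis) under 6 ways of scaling or correcting the counts, by role. In all 6, the same 27 genes lie above 1 and 5 below it. Slc7a11 and Vldlr move farthest under the correction for length and GC content.

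The surrounding pathway was described with 6 lists of other genes, 109 in all. These lists were chosen with earlier results of these data known, so their counts and medians are descriptions. They are to be read against all measured genes, of which 6.98% were called higher and 8.29% lower, with a median log2 ratio of 0.00. Among the eIF2 kinases and regulators, 2 of 14 measured genes were called higher and 0 lower, with a median log2 ratio of 0.35. Eif2b3, a subunit gene of the exchange factor eIF2B, had 901 counts in the mutant and 525 in the control library and a ratio of 2.28 (2.05 to 2.55). Eif2s1, the gene of the eIF2 subunit that the stress kinases phosphorylate, had 3267 and 1988 counts in mutant and control and a ratio of 2.19 (2.07 to 2.31). Both calls were lost with library totals and without the 20 most abundant genes, and that of Eif2b3 also with a 99% interval. With library totals, without the 20 most abundant genes and with upper-quartile factors, 1 gene of the list was called lower. That gene was Impact, whose product restrains GCN2, with 959 counts in the mutant and 2739 in the control library. None of the 4 eIF2 kinase genes was called. Eif2ak2, which encodes the kinase PKR activated by double-stranded RNA, had a ratio of 0.549 (0.499 to 0.604), and Eif2ak3, which encodes the ER stress kinase PERK, one of 0.616 (0.557 to 0.682). Eif2ak1, which encodes the heme-regulated kinase HRI, had a ratio of 0.943 (0.858 to 1.04), and Eif2ak4, which encodes the amino acid sensor GCN2, one of 1.12 (1.002 to 1.25). Impact and the kinase genes were named after their values were seen.

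The cytosolic aminoacyl-tRNA synthetases, which load amino acids onto tRNA and include many ATF4 targets, were the most uniform list. All 20 had their whole interval above 1 under all 6 scalings. With TMM factors, 39.6% of all measured genes had this, and 50.1% had a ratio above 1. The ratios of the 20 ran from 1.24 upward with TMM factors, with a median log2 ratio of 0.79. Of the 20, 2 were called higher (10%), against 6.98% of all measured genes. Vars, the valine enzyme gene, had 5708 counts in the mutant and 3259 in the control library and a ratio of 2.33 (2.23 to 2.43). Rars, the arginine enzyme gene, had 3058 and 1813 counts in mutant and control and a ratio of 2.24 (2.12 to 2.38), but was not called with library totals or without the 20 most abundant genes. Most ratios on the list were thus above 1 but inside 2-fold.

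Other folate and one-carbon genes had 2 of 15 measured members called higher and 0 lower, with a median of 0.65. The called genes were the cytosolic counterparts of the mitochondrial enzymes. Shmt1 had 568 counts in the mutant and 248 in the control library and a ratio of 3.05 (2.62 to 3.55), and Mthfd1 had 2331 and 1280 counts in mutant and control and a ratio of 2.42 (2.26 to 2.60). Among other amino acid transporters and enzymes, 6 of 22 measured genes were called higher and 0 lower, with a median of 0.74. Slc38a1, a glutamine transporter gene, had 888 counts in the mutant and 264 in the control library and a ratio of 4.47 (3.90 to 5.15). Ass1, whose product makes the precursor of arginine, had 1495 and 544 counts in mutant and control and a ratio of 3.66 (3.31 to 4.04). Slc43a1, which encodes the large neutral amino acid transporter LAT3, had only 45 counts in the mutant and 9 in the control library and a ratio of 6.65 (3.21 to 15.5). With a minimum of 100 counts it would not count as measured. Got1, the cytosolic aspartate transaminase gene, had 1788 counts in the mutant and 829 in the control library and a ratio of 2.87 (2.64 to 3.12). Pycrl was called higher as well.

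**Figure D4:**
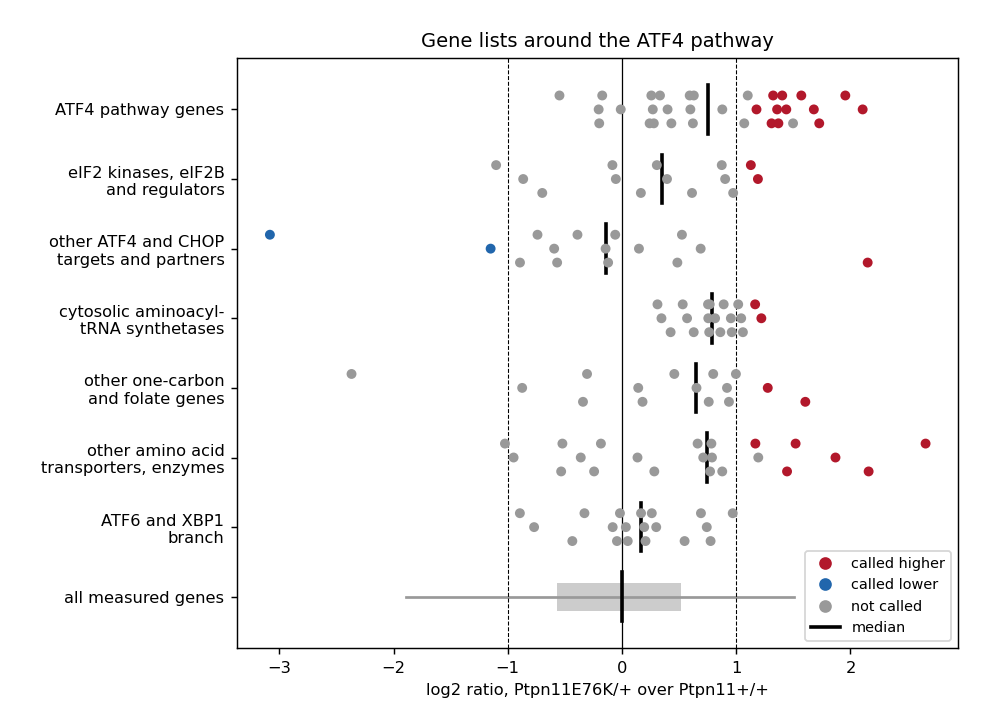
Log2 ratio (Ptpn11E76K/+ over Ptpn11+/+) of each measured gene in the ATF4 programme and in 6 lists around it, with black bars at the medians. For all measured genes, the grey box spans the middle 50% and the line the middle 90%. The synthetases lie together between 0.31 and 1.22, and the ATF6 and XBP1 branch holds no called gene.

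Of 15 measured genes among other known ATF4 and CHOP targets and partners, 1 was called higher (6.67%) and 2 lower (13.3%), counts near the shares of 6.98% and 8.29% over all measured genes. The list's median was -0.14, against 0.00 for all measured genes. The whole interval lay below 1 for 10 of the 15 genes, against 37.4% of all measured genes. It lay above 1 for 4 of them, against 39.6%. Atf3, a stress-induced factor that also belongs to the immediate early genes, had 115 counts in the mutant and 34 in the control library and a ratio of 4.50 (3.05 to 6.81). Klhl24 had 148 and 1672 counts in mutant and control and was 8.49-fold lower in the mutant library (7.18 to 10.1). Gdf15, a secreted stress factor whose gene also answers to p53, had 935 counts in the mutant and 2761 in the control library and was 2.22-fold lower (2.06 to 2.39).

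The ATF6 and XBP1 branch of the unfolded protein response, which makes ER chaperones, had 0 of 19 measured genes called in either direction and a median of 0.17. Calr, the calreticulin gene and the most abundant of them, had 28257 counts in the mutant and 32848 in the control library and a ratio of 1.14 (1.13 to 1.16). Hsp90b1, the gene of the chaperone GRP94 and the next most abundant per length over both libraries together, had 15908 counts in the mutant and 21816 in the control library and a ratio of 0.970 (0.9503 to 0.99002). Hspa5, which encodes the chaperone BiP and was named after its values were seen, had 20148 and 16021 counts in mutant and control and a ratio of 1.67 (1.64 to 1.71). At these depths the 3 differences exceeded counting error while staying inside 2-fold.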

How the data were processed

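The authors deposited raw read counts per Ensembl gene, whole numbers without normalization, in 1 column per genotype. Per the submitters' processing notes, the tools were CASAVA, TopHat and edgeR and the build was mm9, with no tool versions. No source used here names the read counter, the annotation release or the strand setting, so genes that overlap, lie antisense or have near-identical copies may share reads. Symbols from the supplied gene name table matched 34490 of 35275 identifiers, and 4 list genes were matched through RefSeq synonyms. TMM factors came from edgeR 4.0.16 (R 4.3.3). Ratios have exact Clopper-Pearson intervals (SciPy 1.17.1) from the split of a gene's counts, and log2 ratios use a prior count of 0.5 per library. The intervals of the members' log2 ratios were from 0.102 to 1.73 wide. Lengths and GC content come from the longest transcript per gene in GENCODE M21, whose build differs from mm9, and coordinates are given only for RefSeq promoters on GRCm38.p6. The procedure was tested on simulated libraries with counting noise only, so variation between mice or libraries was not covered. All 32 members are named, with the called genes farthest from equality in each list (up to 4) or the 2 most abundant where none was called. The members and lists were chosen with earlier results of these data known. A total of 11 alternatives were run. The values of 1 called list gene are not reported here.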

Additional observations from a re-analysis of the deposited data

How the results depend on the processing

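The members called higher numbered 11 to 16 and those called lower 0 under all alternatives (other scalings, count minimums, interval, thresholds, and removal of length and GC trends), against 12 and 0 in the report. Called under all 6 scalings were 11 members, the exception being Phgdh. Over all alternatives the members' median log2 ratio lay between 0.62 and 0.79. Library totals moved the median of all genes by -0.10 and leaving out the 20 most abundant genes moved it by -0.13, and the members' median moved with it, to 0.65 and 0.62. With the 20 most abundant genes left out, 4 genes of the 6 surrounding lists were called lower, against 2. With a 1.5-fold threshold, 42 genes of these lists were called higher, against 13, and 11 lower, while over all genes 2063 were called higher and 2046 lower, and 16 members higher. When only the ratio itself had to pass 2-fold, 5 list genes were lower, 1435 genes were higher and 1922 lower over the whole table, and 15 members were higher. The cause of both differences is the looser rule itself. Of 351 values of single members under the alternatives, 48 lay outside the gene's counting interval and none changed the sign of a called gene. No paired analysis was possible because each genotype has 1 library. Depth limits Cbs most, and no alternative replaces replicates.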
